A study of Rattus norvegicus with 24 samples.

Results

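The chromatin remodellers described here are the products of 9 rat genes: Smarca2, Smarca4, Smarcb1, Smarce1, Smarcd1, Smarcd3 and Arid1a of the SWI/SNF (BAF) complexes, Smarca5 of the ISWI complexes and Sin3a of the SIN3 corepressor complex. They were taken by gene symbol, as every probe set that the array's annotation assigns to 1 of these 9 symbols, which gave 9 of 14217 genes and 22 of 31042 rat probe sets. Of the 22, 16 were bright enough to be tested, meaning that their mean log2 signal lay at or above the median of all probe sets, a signal of about 116. The other 6 are described by their signals alone.

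The study set a genetic rat model of attention deficit hyperactivity disorder beside an environmental one, and measured RNA in 6 brain regions on 24 Affymetrix RAE 230 2.0 arrays. The SHR group, the genetic model, holds inbred spontaneously hypertensive rats (8 males). WKY rats (Wistar-Kyoto, 8 males) are the inbred control strain of SHR. SD rats are outbred Sprague-Dawley animals, 8 of them unexposed, and the SD-PCB group holds 4 Sprague-Dawley males exposed to polychlorinated biphenyls (PCBs), industrial chlorinated compounds. All were males aged between postnatal days 55 and 65. The dose, route and timing of the PCB exposure, and how many rats were pooled on an array, were not given in the sources used here. Each strain group has 1 array for each region: prefrontal cortex, hippocampus, cerebellar vermis, the dorsal and the ventral striatum, and a sample of substantia nigra with the ventral tegmental area (SN/VTA). A strain comparison therefore rests on 6 regions of the same set of rats, and its p-value measures how well the regions agree, not how much animals vary.

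SWI/SNF complexes use the energy of ATP to slide or eject nucleosomes, and so open promoters and enhancers to transcription factors. Each complex holds 1 of 2 alternative ATPases, BRM (Smarca2) or BRG1 (Smarca4), on a core that includes SNF5 (Smarcb1) and BAF57 (Smarce1), with 1 member of the BAF60 family (Smarcd1, Smarcd3) and, in canonical BAF, a large DNA-binding subunit such as BAF250a (Arid1a). Neural progenitors and mature neurons assemble these complexes from different subunits. SNF2H (Smarca5) is an ATPase of the ISWI family, which spaces nucleosomes in regular arrays, and SIN3A is the scaffold that carries histone deacetylases 1 and 2 to repressed promoters.

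Promoters are shown for the 3 SWI/SNF genes with a probe set called higher in SHR than in WKY, which for Smarca4 was 1 of its 2 tested probe sets. Sequences are the 250 bases upstream of each RefSeq start on rat build GRCr8, 5′ to 3′, and capitals mark the motifs searched: the GC box GGGCGG, the NRF1 palindrome (GCGCA followed directly by its reverse complement TGCGC) and the CCAAT box CCAAT, each on both strands. Smarca4 lies at chr8:28443569-28443818, Smarcb1 at chr20:12740698-12740947, and Smarcd3 has 2 annotated starts, at chr4:11440950-11441199 and chr4:11463026-11463275, all on the + strand.
Smarca4: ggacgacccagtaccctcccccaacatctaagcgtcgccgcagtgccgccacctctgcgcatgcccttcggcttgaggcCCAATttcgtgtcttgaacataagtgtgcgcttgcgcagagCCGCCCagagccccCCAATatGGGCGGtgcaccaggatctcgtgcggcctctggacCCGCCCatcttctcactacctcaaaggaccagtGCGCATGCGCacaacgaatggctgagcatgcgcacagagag
Smarcb1: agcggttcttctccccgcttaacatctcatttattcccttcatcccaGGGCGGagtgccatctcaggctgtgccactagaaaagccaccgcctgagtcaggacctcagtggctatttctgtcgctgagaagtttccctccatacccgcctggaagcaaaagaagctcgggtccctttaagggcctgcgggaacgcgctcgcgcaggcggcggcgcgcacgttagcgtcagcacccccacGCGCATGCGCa
Smarcd3, upstream start: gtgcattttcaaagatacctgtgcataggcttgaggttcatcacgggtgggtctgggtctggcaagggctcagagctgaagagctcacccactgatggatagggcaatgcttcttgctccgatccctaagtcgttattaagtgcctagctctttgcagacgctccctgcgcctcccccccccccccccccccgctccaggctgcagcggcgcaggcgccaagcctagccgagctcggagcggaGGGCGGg
Smarcd3, downstream start: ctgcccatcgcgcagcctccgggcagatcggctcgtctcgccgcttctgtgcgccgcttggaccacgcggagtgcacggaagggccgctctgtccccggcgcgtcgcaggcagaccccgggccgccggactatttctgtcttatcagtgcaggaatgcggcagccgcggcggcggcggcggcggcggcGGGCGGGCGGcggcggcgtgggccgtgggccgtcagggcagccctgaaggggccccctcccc

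All 9 members had an entry, 10 in all, and all 10 windows held the GC box, which stood in 30.5% of the 33469 rat promoters searched over the same length. The NRF1 palindrome stood in 2 of the 10, Smarca4 (first base 41 bases before the start) and Smarcb1 (11 bases before it), against 0.762% of all promoters. The CCAAT box stood in 2 of 10 member windows, Smarca4 and Sin3a, against 34.0%. No member window held TATAAA (12.9% of all promoters) or the cyclic AMP element TGACGTCA (1.59%), and CCGGAA, an ETS core, stood in 3 of 10 (12.6% of all). The GC content of the member windows ran from 60.4% for Smarcb1 to 82.4% for Arid1a, and the median of all promoters was 51.2%. Among the 3 motifs in capitals, matches overlapped in Smarcd3's downstream window, where 2 GC boxes share bases. They also overlapped in the Arid1a window, among GC boxes lying 248 to 235 bases before the start. These matches describe letters, and no binding was measured.

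The deposited arrays share a trimmed mean of 500, yet their median signals differed by group. Medians ran from 131 to 184 on SD arrays, 89.0 to 126 on SD-PCB, 132 to 178 on SHR and 109 to 153 on WKY, and the share of probe sets below a signal of 50 averaged 21.4% on SD and 37.4% on SD-PCB. The median log2 signal of 29 non-rat control probe sets averaged 6.73 on SD arrays, 4.77 on SD-PCB, 6.37 on SHR and 5.43 on WKY. Cerebellar marker genes were high where the labels place them: 5 of 5 were higher in vermis, with a summed signal of 59513 to 69909 there and at most 10226 in the other regions. Between SHR and WKY, 6 of 7 meningeal markers and 6 of 7 vessel markers were higher in SHR, the globin gene Hbb was 1.71 log2 higher, and 0 of 6 neuronal markers passed the test. The summed meningeal signal was 3856 to 18915 in SHR and 2134 to 7139 in WKY, and the vessel sum was 7772 to 15100.0 and 4358 to 11334. Between SD-PCB and SD, 5 of 7 vessel markers were higher, Hbb was 1.06 log2 higher, 5 of 6 astrocyte markers were lower, all 5 of which turned positive after median centring, and 1 of 6 neuronal markers was called on each side. The lower neuronal marker, Snap25, turned to 0.31 after quantile normalization and 0.43 after median centring. Microglial markers were higher in SHR than WKY for 4 of 5 and called for 0 of 5 in SD-PCB minus SD, oligodendrocyte markers were higher for 2 of 5 in the first and lower for 2 of 5 in the second (Mbp and Mal, at 0.21 and 0.22 after median centring), and of 3 markers of proliferating cells 0 were called in the first and 1 was lower in the second. The part of any of these in the results below was not tested. In tissue RNA, fewer cells of a type and less RNA per cell cannot be told apart.

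All differences below are on the log2(signal + 1) scale with their standard error, from limma fitted to all 15521 tested probe sets with strain group and region as terms, and a call means a Benjamini-Hochberg adjusted p below 0.05 over all of them. The signal of a probe set is read only against itself on other arrays, since probe sets differ in how they hybridise.

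Between SHR and WKY, Smarca4 1373565_at, Smarcb1 and Smarcd3 were higher in SHR, and 2 probe sets of Smarca2 with 1 each of Arid1a and Smarca5 were lower. These are 3 probe sets higher and 4 lower of 16, or 43.8%, beside 32% of all probe sets tested (16.4% higher and 15.7% lower). The median difference of the 16 was 0.05, and that of all tested probe sets 0.04. Between SD-PCB and SD, both Smarce1 probe sets and 1 of Smarca2 were higher, and 6 were lower: the 2 other Smarca2 probe sets, Smarca4 1375469_at, Smarca5 1384246_at, Arid1a 1375524_at and Sin3a. That is 56.2% of the 16, beside 31.5% of all tested (14.7% higher and 16.9% lower), with a median of -0.23 against -0.01. When each array was centred on its own median signal, all values of this comparison rose by about 0.7, since the median of all tested probe sets moved to 0.71, and 3 of the 6 lower calls changed sign: Smarca2 1376337_at and 1385074_at and Smarca5 1384246_at. With each array's median signal as a covariate, none of the 16 members was called in either comparison, where 853 of all probe sets were called between SHR and WKY and 0 between SD-PCB and SD (1639 at an unadjusted p below 0.05, limma). The differences did not all shrink in that fit: between SHR and WKY Smarcd3 read 0.86 (adjusted p = 0.061), Smarca4 1373565_at 0.92 (0.0701) and Smarcb1 0.41 (0.26), and between SD-PCB and SD Arid1a 1375524_at read -1.25 (0.37), Smarce1 1372938_at 0.83 (0.316) and Sin3a 0.09 (0.989).

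**Figure D1:**
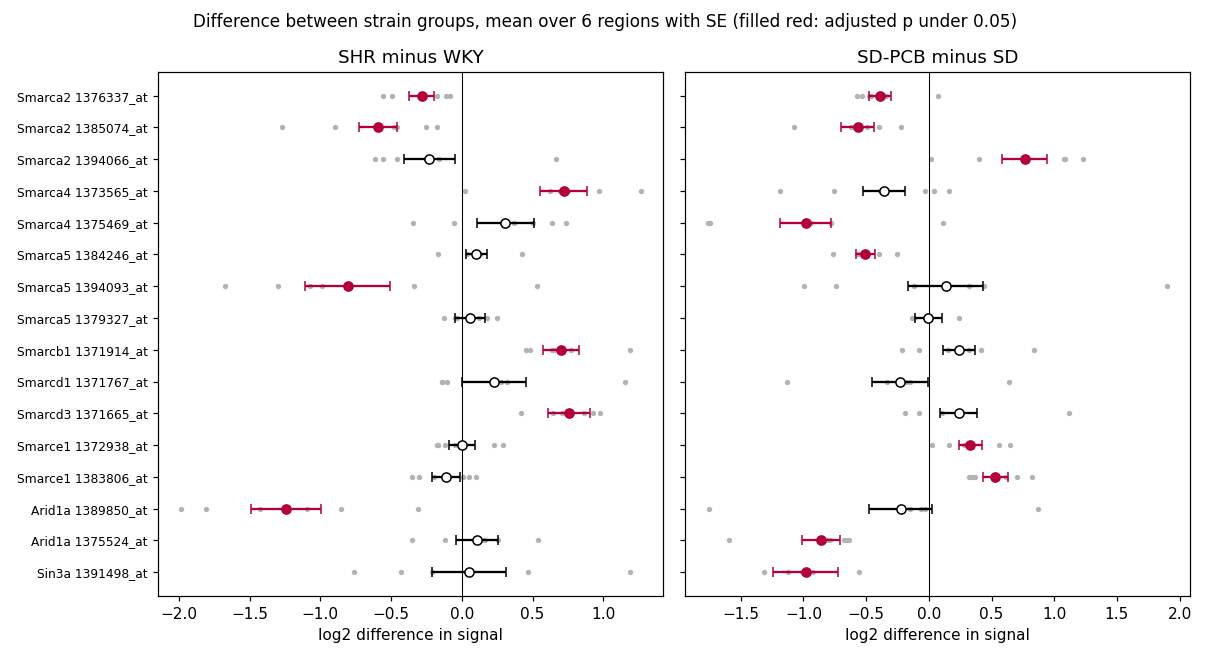
Log2 difference in signal for SHR minus WKY (left) and SD-PCB minus SD (right), for the 16 tested probe sets. Grey points are the 6 regions, large points the fitted mean with its standard error as bars, filled red where the adjusted p is below 0.05. On the left 7 probe sets are filled and on the right 9. Of the filled ones, Smarca2 1376337_at, Smarca2 1385074_at and Smarca5 1384246_at change sign on the right under median centring. Unfilled ones change sign too, among them Smarca5 1379327_at on the right, and Smarce1 1372938_at and Smarca5 1384246_at on the left.

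Smarca4, the BRG1 ATPase, had its highest median signal in SHR on its brightest probe set, 1373565_at. Signals ran from 703 to 1188.5 on the SHR arrays (median 929), 434 to 704 on WKY (median 534), 471 to 664 on SD (median 495) and 240 to 558 on SD-PCB (median 485). Every SHR array lay above every SD and SD-PCB array, and the lowest SHR array (SN/VTA, 703.3) fell just below the highest WKY array (vermis, 703.9). The difference from WKY was 0.72 ± 0.17 (adjusted p = 0.00262, higher in 6 of 6 regions), from 0.03 in vermis to 1.26 in hippocampus. Against SD it was 0.79 ± 0.17 (adjusted p = 0.00102, 6 of 6 regions) and WKY did not differ from SD beyond error, at 0.07 ± 0.17. With the arrays centred on their medians the difference from WKY was 0.38 (adjusted p = 0.0993).

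The second tested Smarca4 probe set, 1375469_at, was called in SD-PCB minus SD and not in SHR minus WKY. Its signals were 108 to 236 on SD-PCB arrays (median 139), 219 to 390 on SD (median 275), 278 to 538 on SHR (median 391) and 256 to 397 on WKY (median 323). All SD-PCB arrays but that of dorsal striatum (236) lay below the lowest SD array. SD-PCB was lower than SD by -0.98 ± 0.20 (adjusted p = 8.30e-04, lower in 5 of 6 regions), but -0.26 with an adjusted p of 0.259 after median centring. The non-rat control probe sets were lower on SD-PCB than on SD arrays too, and the part of that shift in this difference was not tested. On 1375469_at SHR minus WKY was 0.31 ± 0.20 (adjusted p = 0.254), and on 1373565_at SD-PCB minus SD was -0.36 ± 0.17 (adjusted p = 0.104). As deposited, both probe sets thus had the same sign in each comparison. After median centring their signs were opposite in each comparison. In SD-PCB minus SD, 1373565_at lay above 1375469_at by 0.62 on average, in 5 of 6 regions. A two-sided exact sign-flip test of that gap over the 6 regions gave p = 0.156, or 0.281 after adjustment over 36 probe set pairs. The third, 1385011_at, was under the filter, with signals of 5.33 to 144 that overlapped in all 4 groups.

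Smarca2, the BRM ATPase, was lower in SHR than in SD on all 3 of its probe sets. The brightest, 1376337_at, ran from 7619.8 to 13335 on SHR arrays (median 9163), 9416.5 to 16277 on WKY (median 11123), 9841 to 19482 on SD (median 13314) and 9127 to 13108 on SD-PCB (median 10251). The groups overlapped in range, but within a region SHR was the lower in 6 of 6 comparisons with SD and in 6 of 6 with WKY. SHR minus SD was -0.53 ± 0.09 (adjusted p = 1.21e-04), and -0.22 with an adjusted p of 0.0702 after quantile normalization. SHR minus WKY was -0.28 ± 0.09 (adjusted p = 0.0187), and -0.62 after median centring. That call was not made after cyclic loess (adjusted p = 0.11), nor without the ventral striatum arrays (adjusted p = 0.0653) or the hippocampus arrays (adjusted p = 0.0712).

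On the second Smarca2 probe set, 1385074_at, signals were 353 to 872 in SHR (median 619), 483 to 1217 in WKY (median 902), 592 to 1399 in SD (median 815) and 449 to 805 in SD-PCB (median 626). The SHR and SD-PCB medians lay below those of WKY and SD, and the ranges of all 4 groups overlapped. SHR was below WKY by -0.59 ± 0.13 (adjusted p = 0.00244, 6 of 6 regions), with -1.27 in SN/VTA and -0.18 in hippocampus at the ends, and by -0.93 after median centring. SD-PCB was below SD by -0.57 ± 0.13 (adjusted p = 0.00265, 6 of 6 regions), a difference that turned to 0.16 (adjusted p = 0.369) after median centring.

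The third, 1394066_at, went the other way in the PCB-exposed rats. SD-PCB signals were 921 in dorsal striatum, 981 in ventral striatum, 1053 in prefrontal cortex, 695 in hippocampus, 1183 in SN/VTA and 363 in vermis, against 434, 742, 500, 404, 504 and 359 in SD. All 6 were higher, the vermis pair by 0.02 log2, and the mean was 0.76 ± 0.18 (adjusted p = 0.00256), or 1.49 after median centring. On this probe set SHR ran from 224 to 333 and did not overlap with SD (-0.83 ± 0.18, adjusted p = 0.00129, lower in 6 of 6 regions), and WKY was also below SD (-0.60 ± 0.18, adjusted p = 0.0232, lower in 5 of 6). The WKY call was not made without the ventral striatum arrays (adjusted p = 0.0822) or the hippocampus arrays (adjusted p = 0.0814), nor after median centring, at -0.17. SHR minus WKY was -0.23 ± 0.18 (adjusted p = 0.341), and -0.57 after median centring (adjusted p = 0.0236).

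Smarcb1, the SNF5 core subunit, was the member whose SHR and WKY arrays did not overlap. SHR signals were 981 to 1315 (median 1055), WKY signals 570 to 960 (median 650), SD signals 636 to 782 (median 715) and SD-PCB signals 651 to 1136 (median 851). The lowest SHR array (prefrontal cortex, 981) stood above the highest WKY array (vermis, 960) and above all SD arrays. A separation of 6 arrays from 6 was found for 5.95% of all tested probe sets in SHR against WKY and for 1 of the 16 members. The difference was 0.70 ± 0.13 from WKY (adjusted p = 4.16e-04, 6 of 6 regions) and 0.64 ± 0.13 from SD (adjusted p = 6.49e-04, 6 of 6). After median centring the difference from WKY was 0.36 (adjusted p = 0.0312). SD-PCB minus SD was 0.24 ± 0.13 (adjusted p = 0.161), higher in 4 of 6 regions, and 0.96 after centring (adjusted p = 1.03e-06).

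Smarce1, the BAF57 core subunit with an HMG-type DNA-binding domain, was the member raised in the PCB-exposed rats on both of its bright probe sets. On 1372938_at SD-PCB signals were 2801 to 3110.1 (median 3026) and SD signals 1902 to 2784 (median 2479). On 1383806_at they were 1569 to 1857 (median 1666) and 927 to 1353 (median 1193). Neither pair of groups overlapped, as for 3 of the 16 members (18.8%) and 4.41% of all tested probe sets in this comparison, and the SHR (892 to 1289) and WKY (1030.4 to 1340.2) signals of 1383806_at lay below every SD-PCB array too. The differences were 0.33 ± 0.09 (adjusted p = 0.00875) and 0.53 ± 0.10 (adjusted p = 3.43e-04), higher in 6 of 6 regions on each, and they were 1.05 and 1.25 after median centring. The first was not called without the prefrontal cortex arrays (0.27, adjusted p = 0.0553), after quantile normalization (0.19, adjusted p = 0.141) or in a fit of the SD and SD-PCB arrays alone (0.33, adjusted p = 0.0631). SHR minus WKY was 0.00 ± 0.09 on 1372938_at and -0.11 ± 0.10 on 1383806_at, but -0.34 (adjusted p = 0.00908) and -0.45 (adjusted p = 0.0036) after centring. The third, 1378203_at, was under the filter and ran the other way in level, at 10.8 to 121 on SD-PCB arrays (median 64.5) and 82.3 to 206 on SD (median 169).

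Smarcd3 encodes BAF60c, a subunit through which tissue-specific transcription factors contact the complex, and it had the widest range of the 16 by standard deviation of log2 signal (0.86). SHR signals were 1475 in dorsal striatum, 1535 in ventral striatum, 684 in prefrontal cortex, 686 in hippocampus, 1497 in SN/VTA and 389 in vermis, and WKY signals 944, 808, 375, 419, 1121 and 197 in the same order. SHR was the higher of the pair in 6 of 6 regions although the groups overlapped in range, because regions differed more than strains. The mean difference was 0.76 ± 0.15 (adjusted p = 7.10e-04), or 0.42 (adjusted p = 0.0445) after median centring, and against SD it was 0.83 ± 0.15 (adjusted p = 2.06e-04, 6 of 6). SD-PCB minus SD was 0.24 ± 0.15 (adjusted p = 0.226), or 0.96 (adjusted p = 1.81e-05) after centring. The other BAF60 gene measured, Smarcd1 (BAF60a), ran from 163 to 321 in SHR (median 197), 83.8 to 354 in WKY (median 185), 103 to 322 in SD (median 139) and 89.97 to 278 in SD-PCB (median 107), and it passed in none of the 4 strain comparisons: SHR minus WKY was 0.23 ± 0.22 and SD-PCB minus SD -0.23 ± 0.22.

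Arid1a, which encodes the largest BAF subunit, gave 2 bright probe sets with unlike patterns. On 1389850_at WKY signals were 2076 in dorsal striatum, 2271 in ventral striatum, 1801 in prefrontal cortex, 1580.0 in hippocampus, 1644 in SN/VTA and 919 in vermis, against 973, 846, 997, 399, 468 and 741 in SHR. WKY exceeded SHR in 6 of 6 regions, and the ranges met only through the WKY vermis array. SHR minus WKY was -1.25 ± 0.25 (adjusted p = 8.69e-04), while SHR minus SD was -0.62 ± 0.25 (adjusted p = 0.0591) and WKY minus SD 0.63 ± 0.25 (adjusted p = 0.0827). On 1375524_at SHR minus WKY was 0.10 ± 0.15 (adjusted p = 0.622), and SD-PCB signals were 172 to 507 (median 381) against 520.07 to 837 (median 597) in SD. Those groups did not overlap, and SD-PCB was lower by -0.86 ± 0.15 (adjusted p = 1.48e-04, 6 of 6 regions), or by -0.14 with an adjusted p of 0.47 after median centring. The 2 other Arid1a probe sets were under the filter, 1380550_at with signals of 7.57 to 163 and 1381519_at with 3.12 to 177.

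Smarca5, the ISWI ATPase, was highest in unexposed SD rats on its brightest probe set, 1384246_at. Signals were 11598 to 19276 in SD (median 14307), 8126 to 14648 in SD-PCB (median 9741), 8487 to 12382 in SHR (median 9356) and 8268 to 13945 in WKY (median 8530.2). Within each region SD was above all 3 other groups. The differences from SD were -0.51 ± 0.08 for SD-PCB (adjusted p = 3.01e-05), -0.53 ± 0.08 for SHR (adjusted p = 2.43e-05) and -0.63 ± 0.08 for WKY (adjusted p = 5.53e-06), each lower in 6 of 6 regions. These 3 comparisons share the SD arrays. After median centring they were 0.22, -0.44 and -0.20, so that the PCB comparison changed sign and both others kept it. With the array median as a covariate the SHR call remained. The WKY difference was then -0.47 (adjusted p = 0.228) and the SD-PCB difference -0.24 (adjusted p = 0.797), and neither was called. SHR minus WKY was 0.10 ± 0.08 (adjusted p = 0.313). Astrocyte markers were lower than in SD for 5 of 6 in SD-PCB, 4 of 6 in SHR (with 2 higher) and 5 of 6 in WKY. Meningeal markers were lower than in SD for 2 of 7 in SD-PCB and 7 of 7 in WKY, and 0 were called in SHR. The part of these markers in the Smarca5 differences was not tested.

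Of the 2 other Smarca5 probe sets, 1379327_at ran from 530.5 to 1025.5 over all arrays. As deposited it was called in no strain comparison, with SHR minus WKY at 0.06 ± 0.11. After median centring its SD-PCB minus SD value was 0.72 (adjusted p = 1.14e-05). On 1394093_at SHR was lower than WKY by -0.81 ± 0.30 (adjusted p = 0.0421), from 317 to 1035 (median 498) against 717 to 1268 (median 836), with vermis as the exception. It was lower than SD by -0.81 ± 0.30 too (adjusted p = 0.039, 6 of 6 regions). The call against WKY was not made in 7 of 16 alternatives, among them the fits without the arrays of dorsal striatum (adjusted p = 0.127), ventral striatum (0.124), hippocampus (0.114) or SN/VTA (0.0725). The call against SD was not made in 6 of 16, among them the fits without dorsal striatum (adjusted p = 0.124), ventral striatum (0.0651) or hippocampus (0.118).

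Sin3a, the corepressor scaffold, was lower in SD-PCB than in SD in 6 of 6 regions on its tested probe set, 1391498_at. Signals were 180.3 in dorsal striatum, 127 in ventral striatum, 93.7 in prefrontal cortex, 113 in hippocampus, 73.6 in SN/VTA and 82.7 in vermis, against 451, 187, 178, 229, 145 and 181 in SD. The ranges met in the dorsal striatum array of SD-PCB, and the difference was -0.98 ± 0.26 (adjusted p = 0.00632). It was -0.47 (adjusted p = 0.225) after quantile normalization and -0.48 (adjusted p = 0.161) after cyclic loess, -0.26 (adjusted p = 0.362) after median centring and 0.09 with the array median as a covariate. SHR minus WKY was 0.05 ± 0.26 (adjusted p = 0.907). The non-rat control probe sets were also lower on SD-PCB arrays, at a mean log2 signal of 4.77 against 6.73 on SD. The part of that shift in the Sin3a difference was not tested. The other 2 probe sets, 1392269_at and 1397105_at, were under the filter, with signals of 14.2 to 230 (229.86 at most) and 2.56 to 142.

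**Figure D2:**
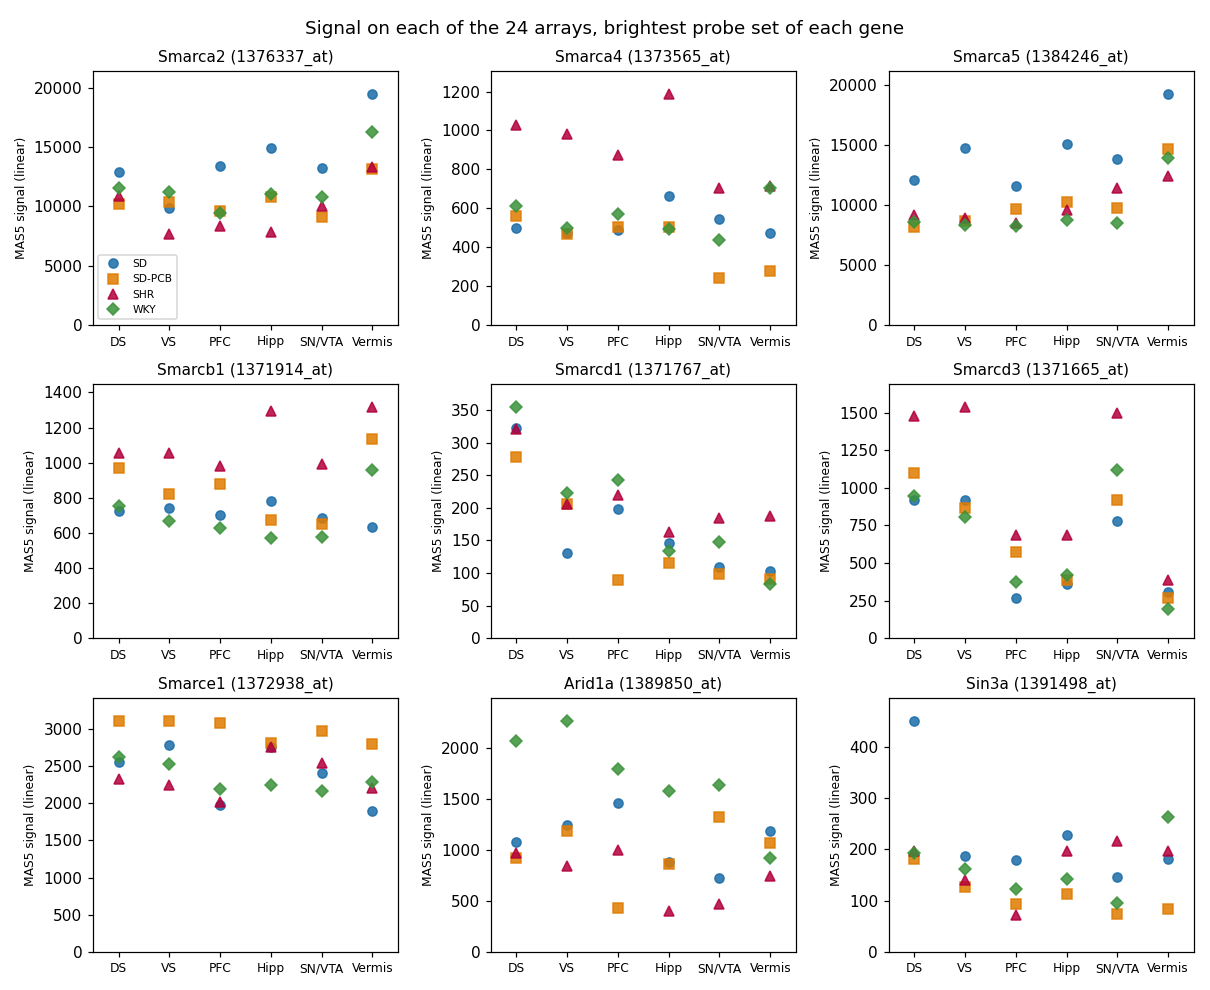
MAS5 signal (linear axis from 0) on each of the 24 arrays for the brightest probe set of each of the 9 genes, by region, with 1 symbol per strain group and no error bars because each symbol is 1 array. DS, VS, PFC and Hipp stand for dorsal striatum, ventral striatum, prefrontal cortex and hippocampus; SHR symbols lie above WKY in all 6 regions for Smarca4, Smarcb1 and Smarcd3, and WKY lies above SHR in all 6 for Arid1a 1389850_at.

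SHR against SD gave 3 members higher and 5 lower of 16 (50%, beside 33.4% of all probe sets tested, 18.9% higher and 14.5% lower), with Smarca4, Smarcb1 and Smarcd3 on the higher side. With the array median as a covariate 7 of these 8 calls remained, all but Smarca5 1394093_at. WKY against SD gave 2 lower and 0 higher (12.5%, beside 17.5% of all, 8.92% higher and 8.63% lower). SHR minus WKY and SHR minus SD share the SHR arrays, so their common calls are not separate support. The SHR and SD arrays did not overlap for 3 of the 16 (18.8%, beside 4.83% of all), which were Smarca4 1373565_at, Smarcb1 and Smarca2 1394066_at.

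Probe sets of 1 gene did not always move together, which bears on how a gene-level statement can be read. Over the 24 arrays the 2 bright Smarce1 probe sets had r = 0.74 and those of Smarca4 r = 0.69, whereas Smarca2 1394066_at had r = -0.18 with 1376337_at and -0.07 with 1385074_at, and the bright Arid1a pair had r = 0.14. These arrays share animals, regions and scaling, and the correlations are descriptions. In SD-PCB minus SD, Smarca2 1376337_at lay below 1394066_at by -1.15 on average and 1385074_at by -1.33, in 6 of 6 regions each. In SHR minus WKY, Arid1a 1389850_at lay below 1375524_at by -1.35 in 6 of 6 regions. Each of these 3 had p = 0.03125 in a two-sided exact sign-flip test over the 6 regions, the smallest that 6 regions allow, and 0.102 after adjustment over the 36 probe set pairs compared. Other pairs reached the same values, so these 3 are not exceptional. Among them were Smarca4 1373565_at above 1375469_at by 0.41 in SHR minus WKY, and Smarce1 1372938_at below 1383806_at by -0.20 in SD-PCB minus SD. Where on the transcript each probe set lies was not analysed here.

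**Figure D3:**
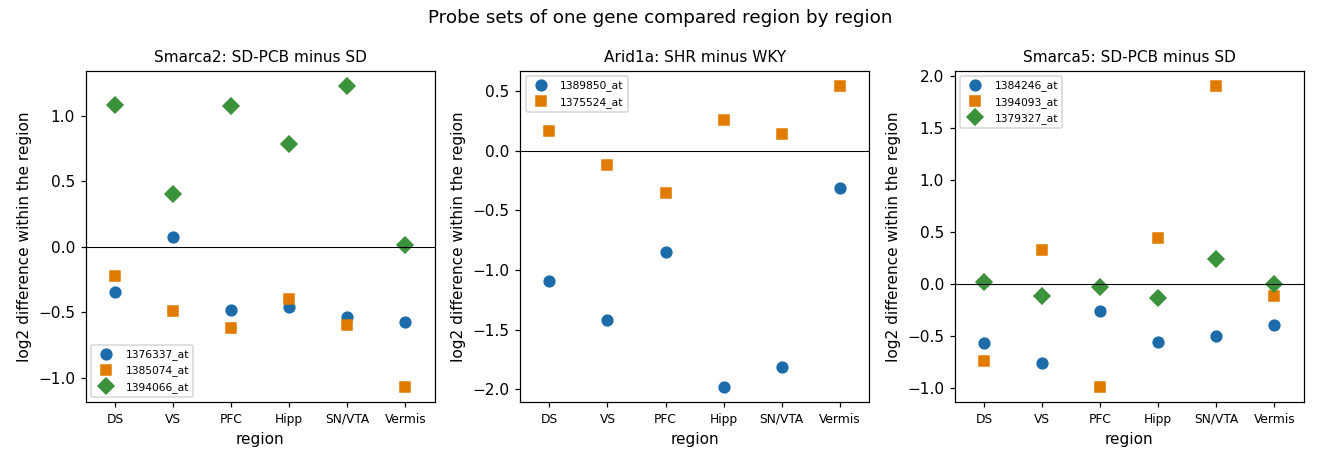
Log2 difference within each region for the tested probe sets of Smarca2 (SD-PCB minus SD), Arid1a (SHR minus WKY) and Smarca5 (SD-PCB minus SD), 1 symbol per probe set and no error bars because each difference is between 2 arrays. Smarca2 1394066_at lies above 0 in all 6 regions while 1385074_at lies below 0 in all 6, and under median centring the mean of 1385074_at turns to 0.16; Arid1a 1389850_at lies below 1375524_at in all 6.

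The difference between the genetic and the environmental comparison, (SHR minus WKY) minus (SD-PCB minus SD), was tested directly and passed for 10 of 16 members (62.5%, beside 40.4% of all probe sets). Among the ATPases, Smarca4 differed by 1.08 ± 0.24 on 1373565_at (adjusted p = 0.00109) and by 1.29 ± 0.29 on 1375469_at (adjusted p = 0.0013), higher in 6 of 6 regions on each. After median centring these were 0.02 (adjusted p = 0.951) and 0.23 (adjusted p = 0.495). Smarca2 1394066_at differed by -0.99 ± 0.25 (adjusted p = 0.0038), lower in 5 of 6 regions. Both Smarce1 probe sets were on the negative side, 1383806_at at -0.64 ± 0.14 (adjusted p = 0.00112, 6 of 6 regions) and 1372938_at at -0.33 ± 0.13 (adjusted p = 0.048). The call of 1372938_at was made in 5 of 15 alternatives only, with -0.12 after quantile normalization and -0.18 after cyclic loess, and not without the arrays of dorsal striatum, ventral striatum, prefrontal cortex, SN/VTA or vermis (adjusted p from 0.054 to 0.193). The 2 Arid1a probe sets went in opposite directions, -1.02 ± 0.35 for 1389850_at (adjusted p = 0.0242) and 0.96 ± 0.21 for 1375524_at (adjusted p = 0.00109). The call of 1389850_at was made in 8 of 15 alternatives, and not without the arrays of dorsal striatum (adjusted p = 0.0507), ventral striatum (0.0883), hippocampus (0.112) or SN/VTA (0.148). Smarcb1 read 0.46 (adjusted p = 0.0463), a call kept in 8 of 15 alternatives. It was lost without the arrays of dorsal striatum, ventral striatum, prefrontal cortex, hippocampus or SN/VTA. Sin3a read 1.03 (adjusted p = 0.0297), a call kept in 7 of 14. It was 0.22 (adjusted p = 0.709) after quantile normalization and 0.28 (adjusted p = 0.574) after cyclic loess. With the array median as a covariate none of the 16 was called. Smarcd3 was higher in SHR than WKY and not called between SD-PCB and SD, but the test of that difference gave 0.52 ± 0.21 and did not pass (adjusted p = 0.0511). Median centring moved the median of all probe sets in this contrast to -0.98, and 7 of the 16 members changed sign, each with a call in at least 1 of the settings: Smarcb1, Smarcd3, Arid1a 1375524_at, Smarca2 1376337_at, Smarca5 1379327_at, Smarca5 1384246_at and Sin3a.

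Among brain regions, Smarcd3 was the member that differed in each of the 6 contrasts of a region with the other 5. Its 4 signals in SD, SD-PCB, SHR and WKY order were 919.8, 1095, 1475 and 944 in dorsal striatum, 917, 868, 1535 and 808 in ventral striatum, and 780.2, 918, 1497 and 1121 in SN/VTA. They were 265, 575, 684 and 375 in prefrontal cortex, 361, 388, 686 and 419 in hippocampus, and 309, 271, 389 and 197 in vermis. Within each strain group the striatal and SN/VTA arrays stood above those of cortex, hippocampus and vermis. Oligodendrocyte markers varied by region too: 4 of 5 were higher in SN/VTA (median 0.98), 4 of 5 lower in prefrontal cortex (-0.52), 4 lower and 1 higher in vermis (-1.18), 1 higher in dorsal striatum (0.22), and 0 called in ventral striatum (0.13) and hippocampus (0.09). Their summed signal was 27065 to 46437 in SN/VTA, 27635 to 37236 in dorsal striatum, 24785 to 39309 in ventral striatum, 17192 to 26710.0 in prefrontal cortex, 25289 to 36754 in hippocampus and 26492 to 35575 in vermis, and their part in the Smarcd3 pattern was not tested. Differences were 0.94 ± 0.14 in dorsal striatum (adjusted p = 2.53e-05), 0.79 ± 0.14 in ventral striatum (adjusted p = 5.24e-04) and 0.87 ± 0.14 in SN/VTA (adjusted p = 3.96e-05), each higher in 4 of 4 strain groups. They were -0.61 ± 0.14 in prefrontal cortex (adjusted p = 0.00271), -0.60 ± 0.14 in hippocampus (adjusted p = 0.00554) and -1.39 ± 0.14 in vermis (adjusted p = 1.99e-08), each lower in 4 of 4. Without the SHR arrays the hippocampus value was -0.62 with an adjusted p of 0.0562. Region accounted for 79.7% of the variance of Smarcd3 and strain group for 14.9%, where the medians over all tested probe sets were 37.0% and 28.8%.

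Smarcd1, the other BAF60 gene, was highest in dorsal striatum, at 322 (SD), 278 (SD-PCB), 321 (SHR) and 354 (WKY), and no array of another region exceeded 243. The 4 arrays did not overlap with the other 20, which held for 0.651% of all tested probe sets and for 1 of the 16 members, and the difference was 1.12 ± 0.21 (adjusted p = 4.24e-04). In vermis it was lower by -0.70 ± 0.21 (adjusted p = 0.00832, 4 of 4 groups), but not without the WKY arrays (-0.51, adjusted p = 0.132). That vermis call was also not made with array weights (adjusted p = 0.0508) or with the array median as a covariate (-0.66, adjusted p = 0.239). Dorsal striatum gave 4 members higher and 2 lower of 16 (37.5%, beside 19.5% of all probe sets, 10% higher and 9.47% lower), and ventral striatum gave Smarcd3 alone (6.25%, beside 7.93%).

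Arid1a 1375524_at was 837, 484, 1042 and 929 in dorsal striatum and 520.07, 172, 448 and 307 in vermis, in the same order of groups. It was higher than elsewhere by 0.64 ± 0.14 in dorsal striatum (adjusted p = 0.00171) and lower by -0.85 ± 0.14 in vermis (adjusted p = 2.68e-05), in 4 of 4 groups each. With the array median as a covariate the vermis value was -0.68 (adjusted p = 0.0595) and not called. The brighter Arid1a probe set, 1389850_at, was called in no region. Sin3a in dorsal striatum read 451 in SD, 180.3 in SD-PCB, 197 in SHR and 193 in WKY, a difference of 0.74 ± 0.25 (adjusted p = 0.0384), and the call was not made without the SD (0.55, adjusted p = 0.24), SD-PCB (adjusted p = 0.133) or WKY arrays (adjusted p = 0.0696).

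Vermis moved 8 of the 16 members (4 higher and 4 lower, 50%), beside 48.9% of all tested probe sets (22.6% higher and 26.3% lower), so the share is that of the array as a whole. Smarca5 1384246_at was highest there, at 19276 in SD, 14648 in SD-PCB, 12382 in SHR and 13945 in WKY, each the highest of its 6 regions, with a difference of 0.57 ± 0.07 (adjusted p = 5.91e-07). That call was made in 13 of 13 alternatives. Smarca2 1376337_at was also highest in vermis in each strain group, by 0.55 ± 0.08 (adjusted p = 1.10e-05). It was higher by 0.14 (adjusted p = 0.191) after quantile normalization and by 0.23 (adjusted p = 0.083) after median centring. Smarca2 1385074_at was higher (0.44 ± 0.13, adjusted p = 0.00611) and Smarca2 1394066_at lower (-0.79 ± 0.17, adjusted p = 5.12e-04). With the array median as a covariate neither was called, at 0.58 (adjusted p = 0.0739) and -0.58 (adjusted p = 0.194). The call of 1385074_at was not made without the SD arrays (0.33, adjusted p = 0.0875) or after median centring (0.12, adjusted p = 0.509). Nor was it made with array weights (adjusted p = 0.0578). Smarcb1 was higher by 0.30 ± 0.12 (adjusted p = 0.0417, 3 of 4 groups), and the call was not made without the SD-PCB (adjusted p = 0.177), SHR (0.116) or WKY arrays (0.276). After median centring the Smarcb1 value was -0.016 (adjusted p = 0.924).

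The remaining region calls were on the ATPases. Smarca2 1385074_at was higher in prefrontal cortex, where it read 1238 in SD, 805 in SD-PCB, 872 in SHR and 1217 in WKY, by 0.60 ± 0.13 (adjusted p = 0.00135, 4 of 4 groups). It was lower in hippocampus, at 592, 449, 427 and 483, by -0.68 ± 0.13 (adjusted p = 6.72e-04, 4 of 4), and lower in SN/VTA by -0.38 ± 0.13 (adjusted p = 0.0231), where the call was not made without SD (adjusted p = 0.0615), SD-PCB (0.0529) or SHR arrays (0.256). Smarca5 1379327_at was higher in SN/VTA, at 787, 929, 1025.5 and 942, by 0.46 ± 0.10 (adjusted p = 0.00108, 4 of 4). Lower calls for 1379327_at and 1384246_at in dorsal striatum (-0.30 and -0.23) and prefrontal cortex (-0.29 and -0.22) had adjusted p between 0.028 and 0.0424, and each call was missed in at least 3 of the 4 fits that left out a strain group. Smarca4 1373565_at was lower in SN/VTA by -0.41 ± 0.16 (adjusted p = 0.0486), but not without the SD-PCB (-0.25, adjusted p = 0.25), SHR (adjusted p = 0.17) or WKY arrays (adjusted p = 0.0965). Both Smarce1 probe sets were called in no region, with differences from -0.18 to 0.15.

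**Figure D4:**
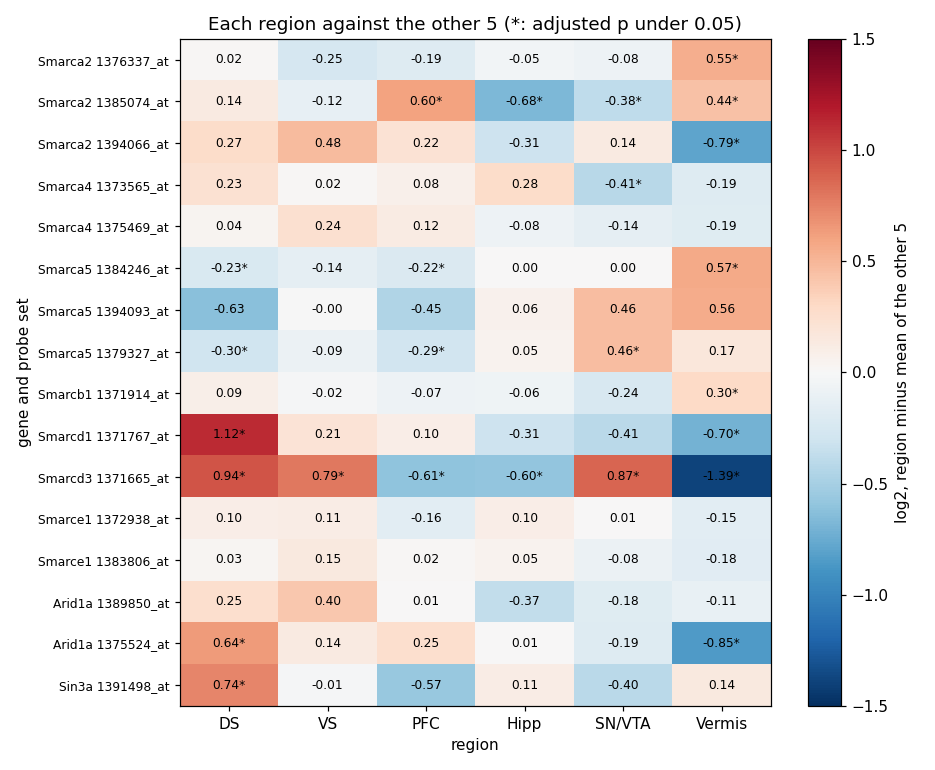
Log2 difference of each region from the mean of the other 5, for the 16 tested probe sets (colour scale from -1.5 to 1.5, an asterisk where the adjusted p is below 0.05). Smarcd3 carries an asterisk in all 6 columns and runs from 0.94 in dorsal striatum to -1.39 in vermis, and the Smarce1 rows carry none.

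Counts in the other regions lay near those of all probe sets: 4 of 16 members in prefrontal cortex (25%, beside 21.6%), 2 in hippocampus (12.5%, beside 10.3%) and 4 in SN/VTA (25%, beside 33.4%).

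Other subunits of the remodelling families were read from lists of genes, each by its brightest tested probe set. Of 18 tested genes among other BAF and PBAF subunits, 4 were higher and 3 lower in SHR than in WKY, and 3 higher and 1 lower in SD-PCB than in SD, where 20.7% and 14.8% of all genes were higher and 13.0% and 13.5% lower. Median centring changed the counts of every list in both comparisons, and for these 18 genes it gave 0 higher and 7 lower in SHR, and 14 higher and 0 lower in SD-PCB. Of all 15521 tested probe sets, centring called 6417 in SHR minus WKY, 570 of them higher, and 11526 in SD-PCB minus SD, 10991 of them higher. The centred counts of the lists below stand beside these same shares. Bcl7a, a BAF subunit, was lower in SHR (-0.88 ± 0.13, adjusted p = 7.36e-05, 6 of 6 regions), as was Pbrm1, the bromodomain subunit of PBAF (-0.51 ± 0.14, adjusted p = 0.00779). Bcl11a, a zinc finger subunit of neural BAF, was higher in SD-PCB (0.66 ± 0.14, adjusted p = 8.20e-04), and so was Bicral, of the GBAF complex (0.41 ± 0.10, adjusted p = 0.00257; 0.25 and 0.0636 after quantile normalization), in 6 of 6 regions each.

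Of 6 tested ISWI and partner genes, Bptf, the NURF subunit that reads methylated histone tails, was lower in both comparisons, by -0.44 ± 0.11 in SHR (adjusted p = 0.00571) and -0.54 ± 0.11 in SD-PCB (adjusted p = 8.39e-04), although the second turned to 0.18 (adjusted p = 0.221) after median centring. Baz2b was the other called gene, lower in SD-PCB (-0.76 ± 0.18, adjusted p = 0.003), but -0.03 (adjusted p = 0.872) after median centring and -0.50 (adjusted p = 0.0763) after quantile normalization, and Chrac1 read 0.56 ± 0.22 in SHR minus WKY without passing (adjusted p = 0.0571). Centred, the 6 genes gave 0 higher and 4 lower in SHR, and 3 higher and 0 lower in SD-PCB. Among 13 CHD and NuRD genes, 3 were higher and 2 lower in SHR. The lower ones were the remodelling ATPases Chd2 (-1.01 ± 0.17, adjusted p = 2.14e-04) and Chd4 (-0.97 ± 0.23, adjusted p = 0.00303). The higher ones were the CHD genes Chd3 (0.61 ± 0.18, adjusted p = 0.012) and Chd8 (0.36 ± 0.12, adjusted p = 0.0278), and Mta3 (0.86 ± 0.23, adjusted p = 0.00811). None of these higher calls was made after median centring (adjusted p = 0.297, 0.928 and 0.0645). In SD-PCB 1 was higher and 4 lower, led by Chd7 (-1.20 ± 0.12, adjusted p = 3.55e-07, 6 of 6 regions) and Chd8 (-0.48 ± 0.12, adjusted p = 0.00431), of which Chd8 turned to 0.24 (adjusted p = 0.119) after median centring. Centred, the 13 genes gave 0 higher and 7 lower in SHR, and 7 higher and 1 lower in SD-PCB.

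Of 13 SIN3 complex genes, 1 was higher and 2 lower in SHR, the lower ones being Hdac2, a deacetylase of the complex (-0.67 ± 0.11, adjusted p = 1.57e-04), and Arid4a (-0.56 ± 0.15, adjusted p = 0.0076). In SD-PCB 3 were higher and 2 lower, with Brms1l at 0.71 ± 0.11 (adjusted p = 3.13e-05) and Ing2 at -1.06 ± 0.20 (adjusted p = 3.46e-04), which was -0.34 (adjusted p = 0.141) after median centring. Centred, the 13 genes gave 0 higher and 6 lower in SHR, and 9 higher and 0 lower in SD-PCB. Among 10 genes of INO80, SRCAP and TIP60, the actin-related protein Actr8 was higher in SHR by 1.69 ± 0.14 (adjusted p = 1.16e-08) and the helicase Ruvbl2 by 1.06 ± 0.22 (adjusted p = 0.00111), in 6 of 6 regions each, beside 2 lower genes. In SD-PCB 3 of the 10 were higher and 2 lower, with Actr6 at 0.44 ± 0.11 (adjusted p = 0.00413; 0.28 and 0.0671 after quantile normalization) and Ep400 at -0.59 ± 0.11 (adjusted p = 4.53e-04), the latter 0.14 (adjusted p = 0.374) after median centring. Centred, the 10 genes gave 2 higher and 4 lower in SHR, and 8 higher and 0 lower in SD-PCB. Of 7 other SNF2-family genes, 2 were higher and 2 lower in SHR, with Smarcal1 at 0.88 ± 0.22 (adjusted p = 0.00534; 0.54 and 0.0556 after median centring) and Atrx at -0.41 ± 0.12 (adjusted p = 0.0155). In SD-PCB 3 were lower and 0 higher, with Btaf1 at -0.62 ± 0.15 (adjusted p = 0.00291) and Smarcad1 at -0.34 ± 0.08 (adjusted p = 0.00372), and both turned positive (0.10 and 0.38) after median centring. Centred, the 7 genes gave 0 higher and 3 lower in SHR, and 5 higher and 0 lower in SD-PCB.

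The largest vermis difference in each list was -4.53 ± 0.25 for Bcl11b, a zinc finger BAF subunit of cortical and striatal neurons (adjusted p = 8.75e-13), 2.06 ± 0.12 for Chd7 (adjusted p = 1.14e-12), -1.69 ± 0.27 for Smarca1, the second ISWI ATPase (adjusted p = 1.47e-05), -0.79 ± 0.14 for Sap130 (adjusted p = 3.88e-05), 0.67 ± 0.17 for Hltf (adjusted p = 0.00222) and 0.42 ± 0.13 for Ino80 (adjusted p = 0.00821), each in 4 of 4 strain groups. After median centring Hltf (0.35, adjusted p = 0.0893) and Ino80 (0.10, adjusted p = 0.562) were not called. In vermis 5 BAF and PBAF genes were higher and 4 lower, and among the SIN3 genes 1 was higher and 6 lower, where 19.3% of all genes were higher and 29.7% lower. Centred, these counts were 3 and 8, and 0 and 9, where 8425 of all 15521 tested probe sets were called in vermis, 1535 of them higher.

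For each member the tested genes whose signal followed it most closely over the 24 arrays were listed by Pearson's r of log2 signal, as a description of arrays that share rats, regions and scaling. Smarcd3 went with Dpysl5 (r = 0.91) and Gaa (0.90), Smarcd1 with Foxp1 (0.86) and Art3 (0.84), and Smarca5 with Scd2 (0.96) and Dync1li2 (0.96). Smarca4 went with Mphosph8 (0.87) and Ncln (0.87), Smarca2 with Eloc (0.85) and Rac1 (0.85), and Smarcb1 with Trim28 (0.83) and Lysmd2 (0.83). Arid1a 1389850_at went with Polr3k (0.87) and Taf2 (0.86), Smarce1 with Rprd1a (0.82) and Commd1 (0.81), and Sin3a with Zfp446 (0.76) and Sbf2 (0.74). Between members, Smarca2 and Smarca5 had r = 0.73 and Smarcb1 and Arid1a r = -0.64 by their brightest probe sets.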

How the data were processed

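RNA from 6 brain regions of 4 rat groups was hybridised to 24 Affymetrix RAE 230 2.0 arrays, 1 for each region and group. Per the labels, RNA was extracted with Qiagen RNeasy and labelled with biotin by Ovation (Nugen). The deposited values are linear intensity signals per probe set, made with MAS5 per the submitters' processing notes (version not given in the sources used here). Each array's mean after trimming 2% at each end was 500, as computed from the deposited values. No counts exist, so the number of arrays limits the precision.

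The members and gene lists were chosen with earlier results of these data known. The 57 control probe sets were removed from 31099, leaving 31042, of which 20826 carry 1 gene symbol, 436 several and 9780 none. Probe sets were tested where their mean log2(signal + 1) was at or above the median (6.87), which left 15521. limma 3.58.1 in R 4.3.3 was fitted with strain group and region as additive terms (15 residual degrees of freedom, a trended prior), with Benjamini-Hochberg adjustment over all tested probe sets and a threshold of 0.05. The test of a pair of probe sets was an exact two-sided sign-flip test over 6 regions. The script was tested on simulated data. Named genes were all members, the 2 genes of each list with the smallest adjusted p in SHR minus WKY and in SD-PCB minus SD, the gene of each list with the largest called vermis difference, and for each member the 2 genes of highest correlation. Outside this rule, the other called CHD and NuRD genes of SHR minus WKY were named too. Cell type markers were fixed lists for 9 cell types. Promoters came from RefSeq (GRCr8). Alternatives were quantile, cyclic loess and median scaling, testing all probe sets or the brightest 25%, a pseudocount of 16, no trend, array weights, the array median as a covariate, a fit of 2 strain groups, and leaving out each region or strain group.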

Additional observations from a re-analysis of the deposited data

Results flagged for a closer look

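In 10 of 160 sets of arrays checked (the 6 arrays of a strain group or the 4 of a region, for 16 probe sets), a single array stood far from the others; chance gives about 1 in 20. In the WKY group the vermis array was the highest for Smarca2 1376337_at (16280.0) and for Smarca5 1384246_at (13940.0), and in the SD group the vermis array was the highest for Smarca5 1394093_at (1513). In ventral striatum the SHR array was the highest for Smarca4 1373565_at (982.4) and the SD array for Smarca5 1384246_at (14780.0), while the SD array was the lowest for Smarcd1 (131.5). In prefrontal cortex the SD-PCB array was the lowest for Smarca4 1375469_at (115.9) and the highest for Smarce1 1383806_at (1857). In hippocampus the WKY array was the lowest for Smarce1 1372938_at (2252), and in dorsal striatum the SD array was the highest for Sin3a (450.7).

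The SHR minus WKY difference departed from the SD-PCB minus SD difference for 10 probe sets by the test of that difference itself (limma). The value was positive for Smarca4 1375469_at (1.288), Smarca4 1373565_at (1.081), Sin3a (1.031), Arid1a 1375524_at (0.9649), Smarca5 1384246_at (0.6105) and Smarcb1 (0.4592), of which Sin3a, Arid1a 1375524_at, Smarca5 1384246_at and Smarcb1 changed sign after median centring, while Smarca4 1375469_at (0.23, adjusted p = 0.495) and 1373565_at (0.02, adjusted p = 0.951) kept theirs and were not called. It was negative for Arid1a 1389850_at (-1.02), Smarca2 1394066_at (-0.9946), Smarce1 1383806_at (-0.6427) and Smarce1 1372938_at (-0.3276).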

How the results depend on the processing

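Over 2468 comparisons of a member with an alternative, 2253 stayed on the same side of the threshold, 142 lost and 53 gained a call, and 20 reversed. Of the 2253, 164 had another sign, with a call in neither setting. The SHR minus SD calls of Smarca4 1373565_at, Smarcb1, Smarcd3, Smarca2 1385074_at and 1394066_at and Smarca5 1384246_at were made under every alternative run. Causes of the changes were not tested.

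Median centring moved the median of all probe sets to -0.30 in SHR minus WKY, 0.71 in SD-PCB minus SD, 0.14 in SHR minus SD, 0.47 in WKY minus SD, -0.98 in the difference between the first 2, 0.14 in prefrontal cortex, 0.20 in SN/VTA and -0.33 in vermis. The share of calls that were higher became 8.88% (51.1% as deposited), 95.4% (46.5%), 69.6% (56.5%), 95.2% (50.8%), 3.22% (54.5%; 43.8% after quantile normalization), 80.9% (54.4%), 75.2% (50.6%) and 18.2% (46.3%) in the same order. Reversed after centring were, in SHR minus WKY, Smarce1 1372938_at (-0.34) and Smarca5 1384246_at (-0.23); in SD-PCB minus SD, Smarca2 1376337_at (0.34) and 1385074_at (0.16) and Smarca5 1379327_at (0.72) and 1384246_at (0.22); in WKY minus SD, Smarcb1 (0.37), Smarce1 1372938_at (0.41) and Smarca2 1385074_at (0.37); in vermis, Smarcb1 (-0.016). In the difference between SHR minus WKY and SD-PCB minus SD they were Smarcd3 (-0.54), Smarcb1 (-0.60), Arid1a 1375524_at (-0.10), Smarca2 1376337_at (-0.96), Smarca5 1379327_at (-0.998) and 1384246_at (-0.45) and Sin3a (-0.030). With the array median as a covariate, Sin3a reversed in SD-PCB minus SD (0.092), and Smarcb1 (-0.45) and Sin3a (-0.54) in that difference.

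Of all probe sets, 4972 were called in SHR minus WKY, 4894 in SD-PCB minus SD, 5187 in SHR minus SD, 2723 in WKY minus SD and 6277 in the difference between the first 2. Centring gave 11526 in SD-PCB minus SD, 8745 in WKY minus SD and 10791 in the difference. No filter gave 11079, 4889 and 13230 in these 3. The upper 25% by mean, which tests fewer probe sets, gave 3105, 2780, 3216, 1782 and 3567, with 3325 in SN/VTA (5177) and 4383 in vermis (7588). Array weights gave 7681 in SHR minus WKY, 4205 in WKY minus SD and 2453 in ventral striatum (1231). The array median as a covariate gave 853, 0, 74 and 2 in SHR minus WKY, SD-PCB minus SD (1639 at an unadjusted p below 0.05, limma), WKY minus SD and the difference, 2144 in prefrontal cortex (3352), 3069 in SN/VTA and 3163 in vermis. Leaving out each region gave 3216 (without ventral striatum) to 5701, 3608 to 5255, 3776 to 4942, 1657 to 3100 and 4661 to 7048. For WKY minus SD, the fits without dorsal striatum (1797), ventral striatum (1657) or hippocampus (1786) fell furthest. Leaving out each strain group gave 1887 to 2797 in dorsal striatum (3023; 1887 without SHR and 1951 without WKY), 619 to 1068 in ventral striatum (767 without SD, 779 without SHR and 619 without WKY), 2253 to 2663 in prefrontal cortex, 885 to 1584 in hippocampus (1605; 899 without SHR and 885 without WKY), 3512 to 5242 in SN/VTA and 6256 to 6848 in vermis.

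The labels give no replicate numbers. Arrays of the groups are matched by region, which is a term of every strain comparison here. Array median signal differed with group, so the covariate and the strain comparisons that involve SD-PCB or WKY cannot be told apart. The SD medians (130.7 to 183.8) all lay above the SD-PCB medians (89.0 to 126). The SHR and SD medians overlapped, and in SHR minus SD 4490 probe sets were called with the covariate. With 1 array per region and group, animal variation has no measure here, and values near background carry no detection call.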

Other observations

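Further vermis differences among BAF subunits are given here, chosen after the values were seen. Dpf3, a PHD finger subunit (BAF45c) that the naming rule did not pick, was 3.15 higher there than in the other 5 regions (adjusted p = 3.62e-11, limma), and Bcl11a, named above for its SD-PCB difference, was lower by -1.83 (adjusted p = 4.91e-11).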
